A study of Caenorhabditis elegans with 6 samples.

Results

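The genes described here are 8 markers of the Caenorhabditis elegans intestine: the gut GATA transcription factors elt-2 and elt-7, the esterase gene ges-1, the brush border cytoskeleton genes act-5, ifb-2 and erm-1, and the apical transporter genes pept-1 (also named opt-2) and nhx-2. They were taken by name from a table of read counts with 46748 genes. All 8 were found, and all 8 were among the 13374 genes with enough counts to be tested. The RNA was from whole N2 hermaphrodites, the standard wild type, collected at 2 days; the title of the series counts such days from the L4 larval stage. One group of worms had RNA interference (RNAi) against T25B9.1, the worm counterpart of the mitochondrial enzyme glycine C-acetyltransferase, and the other had L4440, the empty vector that serves as the control in RNAi by feeding. Both groups share strain, sex and age, and there were 3 libraries per group. Nothing in the labels says whether the libraries were grown as separate cultures. The p-values therefore measure only how far these libraries spread, which may be technical.

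The worm intestine is a tube of a few large epithelial cells that digests food, stores fat and makes yolk. Its identity is set in the embryo by a cascade of GATA factors that ends with ELT-2 and ELT-7, and ELT-2 continues to act on gut genes in the adult. Each cell faces the lumen with a brush border of microvilli built on the actin ACT-5, joined to the membrane by the ezrin/radixin/moesin protein ERM-1 and standing on a sheet of intermediate filaments that contains IFB-2. In that membrane PEPT-1 takes up small peptides together with protons, and the sodium/proton exchanger NHX-2 removes the protons again. GES-1 is a carboxylesterase long used as a gut marker. ACT-5 and ERM-1 are also made in the excretory canal, and ERM-1 in other epithelia and the germ line, so these genes are less strictly intestinal than elt-2, ges-1 or pept-1.

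Library totals ran from 26125982 to 40726259 counts. T25B9.1 itself stood at 1.61 ± 0.222 CPM (counts scaled to a common library total) in T25B9.1 RNAi worms and 5.79 ± 0.721 CPM in L4440 worms (SD, n = 3 each), with no overlap between groups. Its log2 fold change was -1.84 (SE 0.184, edgeR adjusted p = 0.0525, and from 1.28e-11 to 0.307 over 16 alternative fits); T25B9.1 overlaps 1 other annotated gene. One library, T25B9.1 RNAi replicate 1, was unlike the others: along the first principal component, which held 47.1% of the variance, its coordinate was -41.9, and those of the remaining 5 ran from -4.59 to 27.5. EdgeR's quasi-likelihood test called 0 of 13374 genes at an adjusted p under 0.05 (0%), and 826 genes (6.18%) had an unadjusted p under 0.05, 4.01% higher and 2.17% lower in T25B9.1 RNAi worms. DESeq2 called 14 genes (0.104%), the likelihood ratio test of edgeR 12 genes (0.0897%) and a fit with no filter on low counts 139 genes, and none of these 3 sets held any of the 8 intestinal genes.

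None of the 8 intestinal genes passed the test. Their fitted fold changes, T25B9.1 RNAi over L4440, lay between 0.889 for elt-7 and 1.29 for ifb-2, and the 95% intervals of all 8 together spanned 0.675 to 1.598. Of the 8 log2 fold changes 6 were above 0 and 2 below 0, against 50.6% above and 49.4% below over all genes tested. The median log2 fold change was 0.073 over the 8 genes and 0.00243 over all tested genes. In single libraries, the median difference of the 8 genes from the L4440 mean was 0.19, 0.043 and 0.013 (log2) in T25B9.1 RNAi replicates 1, 2 and 3, and 0.025, 0.032 and -0.027 in L4440 replicates 1, 2 and 3. T25B9.1 RNAi replicate 1 was thus the only library with a median above 0.1. When it was omitted, 5 of the 8 were above 0 and the median log2 fold change was 0.046; the median was 0.038 when L4440 replicate 2 was omitted. With a correction for exonic length 5 of the 8 were above 0, with a median of 0.054. In whole worms, a difference in the share of intestinal cells and a difference in RNA per intestinal cell cannot be told apart.

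**Figure D1:**
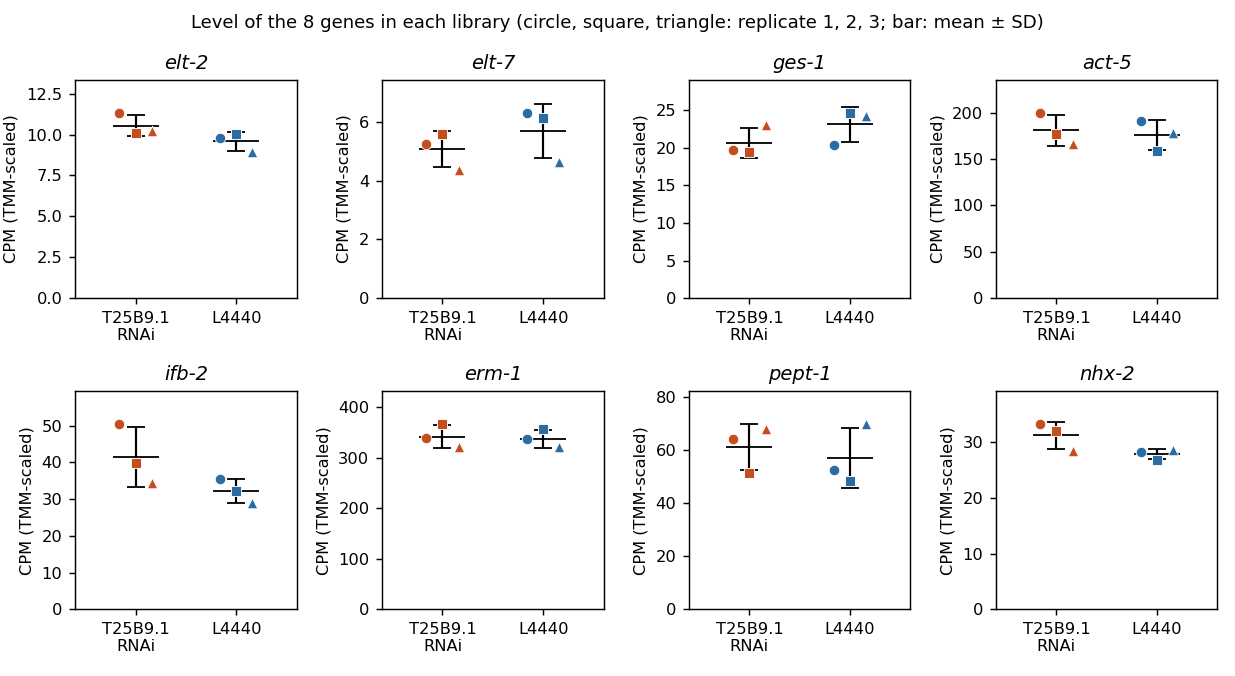
Level of each of the 8 genes, in TMM-scaled CPM on an axis from 0, in T25B9.1 RNAi libraries (orange, left) and L4440 libraries (blue, right). Circles, squares and triangles are replicates 1, 2 and 3, and bars are mean ± SD of 3 libraries; the groups overlap for every gene but elt-2.

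The GATA factor gene elt-2 (WBGene00001250) lies on chromosome X (WBcel235, plus strand, 10481240 to 10483441) and has 1558 exonic bases in 9 exons. It had 301, 289 and 425 counts in T25B9.1 RNAi replicates 1, 2 and 3, against 272, 309 and 259 counts in L4440 replicates 1, 2 and 3. Scaled for depth, these were 11.3, 10.1 and 10.2 CPM in T25B9.1 RNAi worms, against 9.81, 10.01 and 8.94 CPM in L4440 worms. All 3 T25B9.1 RNAi libraries lay above all 3 L4440 libraries, but the lowest of them and the highest L4440 library differed by less than 0.1 CPM. Of the 8 genes, elt-2 was the 1 whose groups did not overlap upward, and over all tested genes 5.53% did so; none did so downward, against 5.32%. The log2 fold change was 0.14 (SE 0.111, 95% interval -0.11 to 0.39; edgeR adjusted p = 0.752). Omitting T25B9.1 RNAi replicate 1 gave 0.080, omitting L4440 replicate 3 gave 0.088, and the highest estimate was 0.18, with L4440 replicate 2 omitted.

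The second gut GATA factor gene, elt-7 (WBGene00015981, chromosome V, plus strand, 4770670 to 4773086, 841 exonic bases), acts beside elt-2 in gut differentiation. It had the fewest counts of the 8, with 140, 160 and 182 in T25B9.1 RNAi worms and 175, 190 and 134 in L4440 worms. That gave 5.26, 5.59 and 4.39 CPM in T25B9.1 RNAi worms, against 6.31, 6.16 and 4.63 CPM in L4440 worms. The groups overlapped, with replicate 3 the lowest library of each group. The log2 fold change was -0.17 (SE 0.175, 95% interval -0.57 to 0.23; edgeR adjusted p = 0.794), the widest interval of the 8. Which library was omitted mattered: the estimate was -0.26 and -0.071 with T25B9.1 RNAi replicates 2 and 3 left out in turn, and -0.090, -0.10 and -0.30 with L4440 replicates 1, 2 and 3 left out in turn. Per exonic length, the level of elt-7 was 0.862, 1.03 and 0.793 times that of elt-2 in T25B9.1 RNAi replicates 1, 2 and 3, and 1.19, 1.14 and 0.958 times in L4440 replicates 1, 2 and 3. These ratios overlapped between groups (2-sided exact permutation p = 0.2, where 3 against 3 libraries cannot go below 0.1). Between libraries of consecutive number the T25B9.1 RNAi library had the lower ratio, and the lower elt-7 CPM, in 3 of 3 cases. The labels do not pair these libraries, and a fit with them as a block gave elt-7 a log2 fold change of -0.16 (edgeR adjusted p = 0.577). By CPM, elt-2, ifb-2 and erm-1 were higher in the T25B9.1 RNAi library in 3 of 3 such cases, and ges-1 was lower. For act-5, pept-1 and nhx-2 the direction differed between cases. The share of all tested genes with a constant direction was not computed.

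The esterase gene ges-1 (WBGene00001578) lies on chromosome V (minus strand, 1427653 to 1432137) and has 1743 exonic bases in 8 exons. It stood at 19.7, 19.4 and 23.0 CPM in T25B9.1 RNAi worms, against 20.5, 24.7 and 24.3 CPM in L4440 worms. T25B9.1 RNAi replicates 1 and 2 were the lowest of the 6 libraries, while T25B9.1 RNAi replicate 3 lay within the L4440 range. Its log2 fold change was -0.16 (SE 0.108, 95% interval -0.40 to 0.09; edgeR adjusted p = 0.725). It was -0.24 when T25B9.1 RNAi replicate 3 or L4440 replicate 1 was omitted, and -0.10 when L4440 replicate 2 was omitted.

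Among the brush border cytoskeleton genes, ifb-2 had the largest difference of the 8. The gene (WBGene00002054, chromosome II, plus strand, 5750188 to 5754140, 1908 exonic bases in 3 transcripts) had 1339, 1141 and 1426 counts in T25B9.1 RNAi worms, against 984, 993 and 842 counts in L4440 worms. Its level was 50.3, 39.9 and 34.4 CPM in T25B9.1 RNAi worms, against 35.5, 32.2 and 29.1 CPM in L4440 worms. T25B9.1 RNAi replicates 1 and 2 lay above every L4440 library, and T25B9.1 RNAi replicate 3 lay just below L4440 replicate 1. The means were 41.5 ± 8.12 CPM in T25B9.1 RNAi worms and 32.3 ± 3.22 CPM in L4440 worms (SD, n = 3 each). EdgeR gave a log2 fold change of 0.36 with an SE of 0.138 and a 95% interval of 0.048 to 0.68 (unadjusted p = 0.0283, adjusted p = 0.717). It was the 1 of the 8 genes with an unadjusted p under 0.05, where 4.01% of all tested genes were higher at that level and 2.17% lower. When T25B9.1 RNAi replicate 1 was omitted, edgeR gave 0.20 (unadjusted p = 0.119, adjusted p = 0.9999). With T25B9.1 RNAi replicates 2 and 3 omitted in turn edgeR gave 0.37 and 0.48 (unadjusted p = 0.0479 and 0.00353). With L4440 replicates 1, 2 and 3 omitted in turn it gave 0.44, 0.37 and 0.29 (unadjusted p = 0.0271, 0.0548 and 0.0827), and no adjusted p was under 0.05.

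The other brush border genes had differences near 0. The microvillar actin gene act-5 (WBGene00000067, chromosome III, minus strand, 13604412 to 13606066, 1270 exonic bases) stood at 199.9, 177 and 166 CPM in T25B9.1 RNAi worms, against 191, 159 and 178 CPM in L4440 worms. Its groups overlapped widely. An estimate of 0.039 was obtained for its log2 fold change (SE 0.0938, 95% interval -0.17 to 0.25; edgeR adjusted p = 0.920), below 0 when T25B9.1 RNAi replicate 1 (-0.040) or L4440 replicate 2 (-0.023) was omitted, and 0.096 and 0.10 when T25B9.1 RNAi replicate 3 and L4440 replicate 1 were omitted in turn. Because act-5 is a close relative of the other worm actins and no source used here gives the counting options, some of its reads may be shared with them.

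The membrane linker gene erm-1 (WBGene00001333, chromosome I, minus strand, 5284026 to 5291604, 2437 exonic bases) had the most counts of the 8, with 8986 to 13334 counts in T25B9.1 RNAi worms and 9269 to 10976 in L4440 worms. It stood at 338, 366 and 321 CPM in T25B9.1 RNAi worms, against 336, 356 and 320.1 CPM in L4440 worms. Replicate 2 was the highest and replicate 3 the lowest library in both groups. The estimated log2 fold change was 0.019 (SE 0.0777, 95% interval -0.16 to 0.19; edgeR adjusted p = 0.955), the narrowest interval of the 8. It was below 0 when T25B9.1 RNAi replicate 2 (-0.052) or L4440 replicate 3 (-0.019) was omitted and with the length correction (-0.020), and it was 0.060 and 0.066 when T25B9.1 RNAi replicate 3 and L4440 replicate 2 were omitted in turn.

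Neither of the apical transporter genes passed the test. The peptide transporter gene pept-1 (WBGene00003877) lies on chromosome X (plus strand, 6456872 to 6461767) and has 2795 exonic bases in 14 exons. It stood at 64.3, 51.5 and 68.1 CPM in T25B9.1 RNAi worms, against 52.5, 48.5 and 69.8 CPM in L4440 worms. L4440 replicate 3 was the highest library of all, and replicate 2 was the lowest of each group. This gave a log2 fold change of 0.11 (SE 0.147, 95% interval -0.23 to 0.44; edgeR adjusted p = 0.846). Every single library moved it: the estimate was 0.070, 0.20 and 0.023 with T25B9.1 RNAi replicates 1, 2 and 3 left out in turn, and 0.052, 0.00977 and 0.28 with L4440 replicates 1, 2 and 3 left out in turn. The estimate of 0.28 had an unadjusted p = 0.0470 in edgeR's test (adjusted p = 0.806). The length correction gave 0.047.

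The exchanger gene nhx-2 (WBGene00003730, chromosome II, minus strand, 7690711 to 7693957, 2054 exonic bases) stood at 33.2, 31.97 and 28.4 CPM in T25B9.1 RNAi worms, against 28.1, 26.9 and 28.5 CPM in L4440 worms. T25B9.1 RNAi replicates 1 and 2 lay above every L4440 library, and T25B9.1 RNAi replicate 3 lay just below L4440 replicate 3. Fitted over all 6 libraries, its log2 fold change was 0.16 (SE 0.0840, 95% interval -0.028 to 0.35; unadjusted p = 0.0862, edgeR adjusted p = 0.717). Omitting T25B9.1 RNAi replicates 1, 2 and 3 in turn gave 0.11, 0.13 and 0.23, the last with an unadjusted p = 0.0327 in edgeR's test (adjusted p = 0.556). Omitting L4440 replicates 1, 2 and 3 in turn gave 0.17, 0.14 and 0.18. The ratio of pept-1 to nhx-2 per exonic length was 1.42, 1.184 and 1.76 in T25B9.1 RNAi worms and 1.37, 1.33 and 1.797 in L4440 worms, and the groups overlapped (2-sided exact permutation p = 0.9). None of the 8 genes overlaps another annotated gene on either strand, which matters because the library kit does not mark strand.

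**Figure D2:**
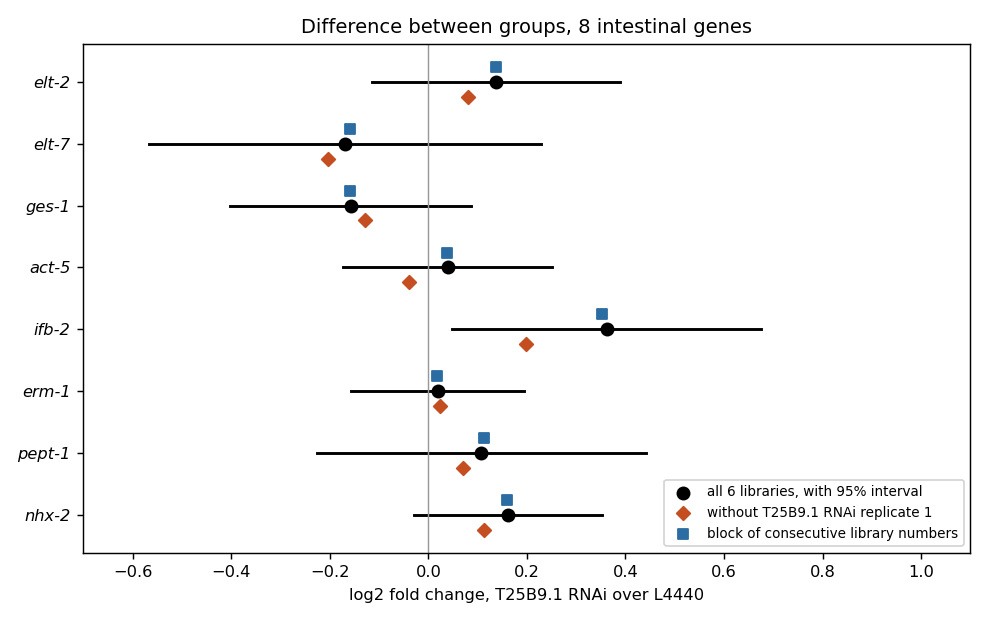
Log2 fold change of each gene, T25B9.1 RNAi over L4440. Black points with lines are edgeR's estimate from all 6 libraries with its 95% interval, orange diamonds the estimate without T25B9.1 RNAi replicate 1, and blue squares the estimate with consecutive library numbers as a block; only the interval of ifb-2 lies wholly above 0, and its estimate is 0.20 when that library is omitted.

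Levels can be compared between genes once counts are divided by exonic length, as CPM per kilobase of exon (RPKM). The microvillus genes stood highest, with act-5 at 143 ± 13.5 RPKM in T25B9.1 RNAi worms and 139 ± 12.8 RPKM in L4440 worms, and erm-1 at 140 ± 9.19 and 138 ± 7.31 RPKM (T25B9.1 RNAi before L4440; SD, n = 3 each). They did not differ from each other beyond their spread, act-5 being the higher in 3 of 6 libraries. Over all 6 libraries act-5 ranked 824th and erm-1 838th among the 13281 tested genes with a length, in the top 6.20% and 6.31%.

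Next came pept-1, at 21.9 ± 3.10 RPKM in T25B9.1 RNAi worms and 20.4 ± 4.04 RPKM in L4440 worms, and ifb-2, at 21.8 ± 4.25 and 16.9 ± 1.69 RPKM (T25B9.1 RNAi before L4440). Their ranges overlapped, with pept-1 the higher in 4 of 6 libraries. The mean of erm-1 was 6.58 times that of pept-1, and erm-1 was the higher in 6 of 6 libraries. The exchanger gene nhx-2 followed at 15.2 ± 1.204 RPKM in T25B9.1 RNAi worms and 13.6 ± 0.424 RPKM in L4440 worms, and ges-1, at 11.9 ± 1.14 and 13.3 ± 1.33 RPKM (T25B9.1 RNAi before L4440). In each of the 6 libraries ifb-2 was above nhx-2, by 1.35-fold in the mean, although their ranges over libraries overlapped. In turn nhx-2 was above ges-1 in 4 of 6 libraries, namely all 3 with T25B9.1 RNAi and L4440 replicate 1.

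The GATA factor genes were lowest. The level of elt-2 was 6.77 ± 0.427 RPKM in T25B9.1 RNAi worms and 6.16 ± 0.365 RPKM in L4440 worms, and that of elt-7 was 6.04 ± 0.741 and 6.78 ± 1.11 RPKM (T25B9.1 RNAi before L4440). Each was the higher in 3 of 6 libraries, while ges-1 was above elt-2 in 6 of 6, by 1.95-fold in the mean. Both ranked just below the middle of the tested genes, elt-2 in the top 55.5% and elt-7 in the top 55.6%. The spread between libraries was about that of other genes: the median coefficient of variation of the 8 genes was 9.56% in T25B9.1 RNAi worms and 9.58% in L4440 worms, against 10.3% and 9.82% over all tested genes. Among the 8, ifb-2 in T25B9.1 RNAi worms (19.5%) and pept-1 in L4440 worms (19.8%) varied most and nhx-2 in L4440 worms (3.13%) least.

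**Figure D3:**
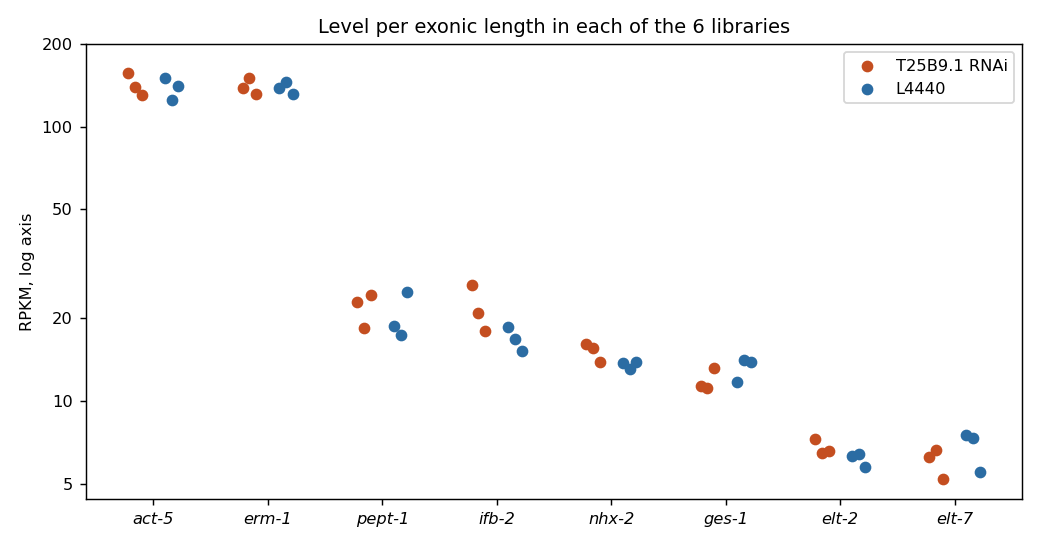
Level of the 8 genes per exonic length, in RPKM on a log axis, in 3 T25B9.1 RNAi libraries (orange, left of each pair) and 3 L4440 libraries (blue, right). Genes are ordered by their mean over 6 libraries; the mean of erm-1 is 6.58 times that of pept-1, the next gene, and elt-2 and elt-7 are lowest in every library.

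The pattern of elt-2 over the 6 libraries was compared with that of 7178 other tested genes with a mean of at least 10 CPM, by Pearson correlation of log2 CPM. The 5 most alike were taf-3 (r = 0.989), unc-83 (0.988), grdn-1 (0.987), klp-3 (0.987) and zip-8 (0.984). Each had its highest value in T25B9.1 RNAi replicate 1 and its lowest in L4440 replicate 3, as elt-2 did. For example, zip-8 stood at 43.4, 30.6 and 34.5 CPM in T25B9.1 RNAi worms and at 28.8, 29.9 and 23.7 CPM in L4440 worms. Among the other 7 genes, r with elt-2 was 0.899 for ifb-2 and 0.611 for nhx-2, and -0.570 for ges-1. All these values rest on the same 6 libraries, 1 of which stands apart, and are a description.

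The actin, filament, peptide transporter and exchanger families place 4 of the 8 genes among their relatives. Of the summed RPKM of the 5 actin genes, act-5 made up 10.3 ± 0.804% in T25B9.1 RNAi worms and 9.71 ± 0.877% in L4440 worms. Of 11 genes for cytoplasmic intermediate filaments, ifb-2 made up 17.4 ± 1.65% in T25B9.1 RNAi worms and 15.4 ± 1.28% in L4440 worms. Of 3 peptide transporters, pept-1 made up 76.2 ± 1.90% in T25B9.1 RNAi worms and 75.3 ± 3.88% in L4440 worms. Of 9 sodium/proton exchangers, nhx-2 made up 35.9 ± 2.18% in T25B9.1 RNAi worms and 34.5 ± 0.798% in L4440 worms (SD, n = 3 each). None of these 4 shares differed beyond the spread between libraries (2-sided exact permutation p from 0.3 to 0.9). The ratio of act-5 to ifb-2 was 5.97, 6.67 and 7.27 in T25B9.1 RNAi worms against 8.10, 7.43 and 9.21 in L4440 worms, with no overlap. Its exact permutation p was 0.1, the smallest that 3 against 3 libraries allow, and 0.8 adjusted over the 8 shares and ratios computed.

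The relatives themselves gave no call. Of the 4 other actin genes 1 was above 0 (median log2 fold change -0.063), with act-2, the most abundant, at 1014, 1253 and 1007 CPM in T25B9.1 RNAi worms and 1240, 1226 and 1024 CPM in L4440 worms. Of the 8 other exchangers 6 were above 0 (median 0.074), and none had an unadjusted p under 0.05 in edgeR's test. When T25B9.1 RNAi replicate 1 was omitted, 4 were above 0 and 1 was higher at an unadjusted p under 0.05. Over the whole table, 313 of 13575 genes tested in that fit had such a p. Among these exchangers nhx-6 had 0.263, 1.15 and 1.35 CPM in T25B9.1 RNAi worms and 0.289, 0.454 and 0.518 CPM in L4440 worms. The peptide transporter genes pept-2 and pept-3 had log2 fold changes of 0.094 and -0.068. Of the 4 GATA factor genes that act outside the gut all were above 0, none past an unadjusted p of 0.05, from 0.000573 for egl-18 to 0.17 for elt-6.

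The filament network to which IFB-2 belongs was followed in 8 further genes, the intestinal filament genes ifc-1, ifc-2, ifd-1, ifd-2 and ifp-1 and the organisers ifo-1, bbln-1 and sma-5. All 8 were tested, 7 were above 0, and the median log2 fold change was 0.21. At an unadjusted p under 0.05 there were 2 higher and 0 lower, against 4.01% and 2.17% over all tested genes, and 0 at an adjusted p under 0.05. The filament organiser gene ifo-1 stood at 27.5, 23.2 and 21.3 CPM in T25B9.1 RNAi worms, against 16.7, 19.7 and 17.9 CPM in L4440 worms, and the groups did not overlap, as in 5.53% of all tested genes in this direction. EdgeR estimated 0.40 on the log2 scale, with an SE of 0.115 and an adjusted p of 0.717, and 0.29 with T25B9.1 RNAi replicate 1 omitted. The filament gene ifp-1 stood at 7.74, 2.66 and 2.67 CPM in T25B9.1 RNAi worms, against 2.20, 1.04 and 1.55 CPM in L4440 worms. Its groups did not overlap either, but the estimate of 1.44 on the log2 scale, with an SE of 0.458 and an edgeR adjusted p of 0.717, was 0.74 with T25B9.1 RNAi replicate 1 omitted. Its adjusted p ran from 0.00665, in the fit with no filter on low counts, to 0.9999 over the 16 alternatives, and that fit was the 1 that called it. The next gene by p, ifc-1, stood at 16.2, 8.60 and 5.47 CPM in T25B9.1 RNAi worms and 8.08, 6.03 and 5.87 CPM in L4440 worms, again highest in T25B9.1 RNAi replicate 1. With that library omitted 6 of the 8 filament genes were above 0, 2 had an unadjusted p under 0.05 in edgeR's test, and the median was 0.072. Over the whole table, 313 of 13575 genes tested in that fit had such a p.

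**Figure D4:**
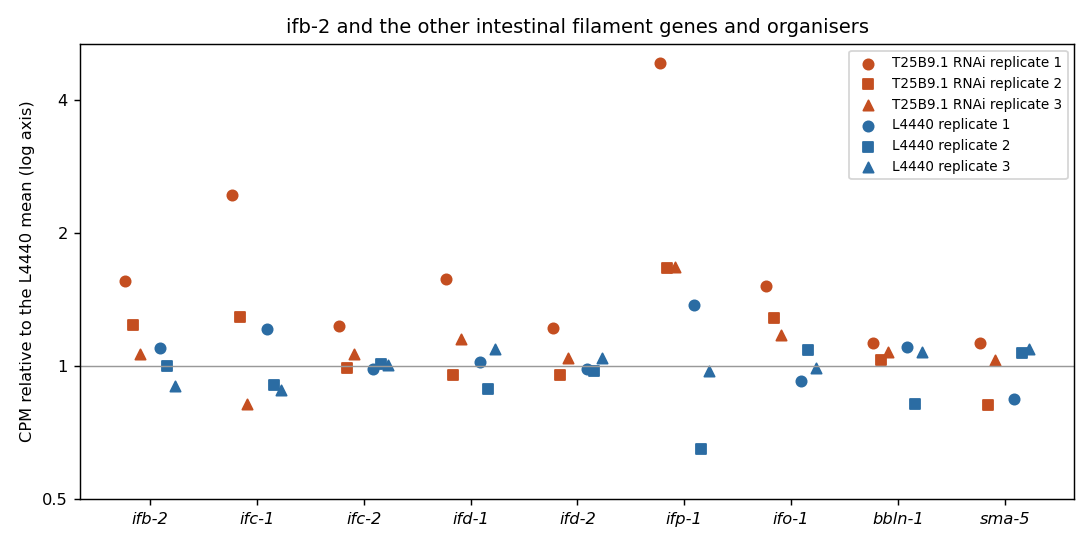
CPM of ifb-2, of 5 other intestinal filament genes and of the organisers ifo-1, bbln-1 and sma-5, each divided by its L4440 mean, on a log axis, for T25B9.1 RNAi libraries (orange, left of each pair) and L4440 libraries (blue, right). T25B9.1 RNAi replicate 1 (orange circle) is the highest library for all 9 genes, by 4.85-fold over the L4440 mean for ifp-1.

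Intermediate filaments outside the gut, listed for comparison, were also highest in that library. Of 5 tested genes 5 were above 0 (median 0.15), and 1 was above 0 when T25B9.1 RNAi replicate 1 was omitted (median -0.024). None had an unadjusted p under 0.05 with all 6 libraries. The lowest p among them was that of ifa-3, at 6.43, 4.02 and 5.98 CPM in T25B9.1 RNAi worms and 5.12, 3.86 and 3.52 CPM in L4440 worms.

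Partners of actin in microvilli and the terminal web were 8 tested genes, of which 8 were above 0 (median 0.13), 2 with an unadjusted p under 0.05 in edgeR's test (4.01% of all tested genes were higher at that level) and 0 with an adjusted one. These were the spectrin genes sma-1, at 388, 277 and 263 CPM in T25B9.1 RNAi worms and 205, 279 and 198 CPM in L4440 worms, and spc-1, at 299.8, 220.3 and 198 CPM in T25B9.1 RNAi worms and 171, 215 and 155 CPM in L4440 worms. Both genes act in other epithelia as well. Their log2 fold changes of 0.44 and 0.41 were 0.24 and 0.21 with T25B9.1 RNAi replicate 1 omitted, when 7 of the 8 genes were above 0 (median 0.052). With the length correction they were 0.049 and 0.13, and 4 of the 8 genes were then above 0 (median 0.022). The microvillus capping gene eps-8 stood at 58.2, 43.2 and 44.4 CPM in T25B9.1 RNAi worms and 41.9, 40.8 and 42.8 CPM in L4440 worms, and nrfl-1, whose product binds ERM-1, at 55.3, 51.1 and 51.6 CPM in T25B9.1 RNAi worms and 51.8, 49.1 and 51.6 CPM in L4440 worms, the last named after its values were seen.

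Apical polarity and junction proteins were 12 tested genes, 8 of them above 0 (median 0.15), with 2 higher and 1 lower at an unadjusted p under 0.05 (4.01% and 2.17% over all tested genes). The junction gene ajm-1 (log2 fold change 0.33) and eat-20 (0.25), a Crumbs-type gene, were higher and par-6 (-0.17), a polarity gene, was lower. With T25B9.1 RNAi replicate 1 omitted the median was 0.049, ajm-1 was at 0.20 and eat-20 at 0.15, and no gene of the list had an unadjusted p under 0.05 in edgeR's test. The number of such genes over the whole table was then 313 in place of 826. With the length correction 5 of the 12 were above 0 (median -0.036) and ajm-1 was at 0.055. Of 9 FERM proteins related to ERM-1 that were tested, 6 were above 0 (median 0.17), and frm-1 (0.27) and frm-7 (0.22) had an unadjusted p under 0.05, against 4.01% of all tested genes higher at that level. With the length correction frm-1 was at -0.15 and the median at 0.047, and neither gene had an unadjusted p under 0.05 with T25B9.1 RNAi replicate 1 omitted, when 313 genes of the whole table did. Of 9 apical trafficking genes 3 were above 0 (median -0.051) and none had an unadjusted p under 0.05.

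Among other products of the intestine, 8 of 14 transporters and channels were above 0 (median 0.029) and 7 of 9 gut granule genes (median 0.066), none with an unadjusted p under 0.05 in edgeR's test. With the length correction 3 of the 14 and 4 of the 9 were above 0 (medians -0.085 and -0.0085). The apical proton pump gene vha-6, named after its values were seen, stood at 215, 194 and 189 CPM in T25B9.1 RNAi worms and 202, 193 and 199 CPM in L4440 worms. Of 10 tested genes for luminal and secreted products 4 were above 0 and 6 below (median -0.12, and -0.036 with T25B9.1 RNAi replicate 1 omitted), and mtl-2 was the 1 with an unadjusted p under 0.05. This gene, for an intestinal metallothionein, stood at 29.5, 33.4 and 32.04 CPM in T25B9.1 RNAi worms, against 51.1, 41.5 and 40.6 CPM in L4440 worms. Its groups did not overlap, as in 5.32% of all tested genes in this direction (log2 fold change -0.49, SE 0.103, edgeR adjusted p = 0.717). DESeq2 called it (adjusted p = 0.0487), as did the fit with no filter on low counts, and the adjusted p ran from 0.00683 to 0.9999 over the 16 alternatives. The transcription factor genes that act upstream of elt-2 in the embryo had few counts. Of 7 such genes and other gut regulators 5 were tested, 3 of them above 0 (median 0.085, and 0.0048 with T25B9.1 RNAi replicate 1 omitted), with end-3 at 18, 13 and 22 counts in T25B9.1 RNAi worms and 28, 18 and 21 counts in L4440 worms. The embryonic factors med-1 and med-2 had at most 1 count in any library.

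Markers of most other tissues stood further from the L4440 mean in T25B9.1 RNAi replicate 1 than the 8 intestinal genes did. The median difference from the L4440 mean in that library was 1.07 (log2) for 12 pharynx genes, 1.05 for 9 hypodermis genes, 0.77 for 10 body wall muscle genes, 0.74 for 11 neuron genes, 0.33 for 8 excretory canal genes and 0.018 for 12 germ line genes, against 0.19 for the 8 intestinal genes. In T25B9.1 RNAi replicates 2 and 3 these medians were 0.21 and 0.25 for pharynx, -0.023 and 0.027 for hypodermis, -0.18 and 0.17 for body wall muscle, and 0.00677 and 0.12 for neurons. In L4440 replicates 1, 2 and 3 they were 0.032, -0.26 and 0.45 for pharynx, 0.21, -0.20 and 0.060 for hypodermis, -0.084, -0.074 and 0.26 for body wall muscle, and -0.026, -0.11 and 0.10 for neurons.

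Summed over each marker list, the level was 93.5 to 223 CPM in T25B9.1 RNAi worms and 72.5 to 100.5 CPM in L4440 worms for pharynx, and 213 to 315 CPM in T25B9.1 RNAi worms and 207 to 236 CPM in L4440 worms for hypodermis. For body wall muscle it was 915 to 1787 CPM in T25B9.1 RNAi worms and 974 to 1381 CPM in L4440 worms, for neurons 276 to 315 and 279.9 to 313 CPM, for germ line 6741 to 6871 and 6609 to 6979 CPM, and for the excretory canal 144 to 167 and 145 to 149 CPM (T25B9.1 RNAi before L4440). The 8 intestinal genes summed to 722, 701 and 656 CPM in T25B9.1 RNAi replicates 1, 2 and 3, against 680, 663 and 663 CPM in L4440 replicates 1, 2 and 3, with overlap between groups. Most of that sum was erm-1 and act-5 (means 342 and 181 CPM in T25B9.1 RNAi worms, 337 and 176 CPM in L4440 worms). These genes are less strictly intestinal than elt-2, ges-1 or pept-1. No gene of these lists was at 0 in all 6 libraries, and the hypodermis gene nhr-73, named after its values were seen, was at 0 in all 3 L4440 libraries. At an unadjusted p under 0.05 there were 4 pharynx, 1 body wall muscle, 1 hypodermis, 2 neuron and 1 excretory canal genes higher and 1 neuron gene lower, against 4.01% higher and 2.17% lower over all tested genes. With T25B9.1 RNAi replicate 1 omitted there were 1 pharynx, 0 body wall muscle, 0 hypodermis, 2 neuron and 0 excretory canal genes higher and 0 lower in edgeR's test. Genes with such a p over the whole table then numbered 313 of 13575 tested, in place of 826 of 13374. The median log2 fold changes were 0.57, 0.25, 0.55, 0.29 and 0.071 for pharynx, body wall muscle, hypodermis, neurons and excretory canal with all libraries. They were 0.20, -0.053, -0.016, 0.10 and -0.035 in the same order with that library omitted. Their part in the values of ifb-2, ifp-1 or sma-1 was not tested.

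**Figure D5:**
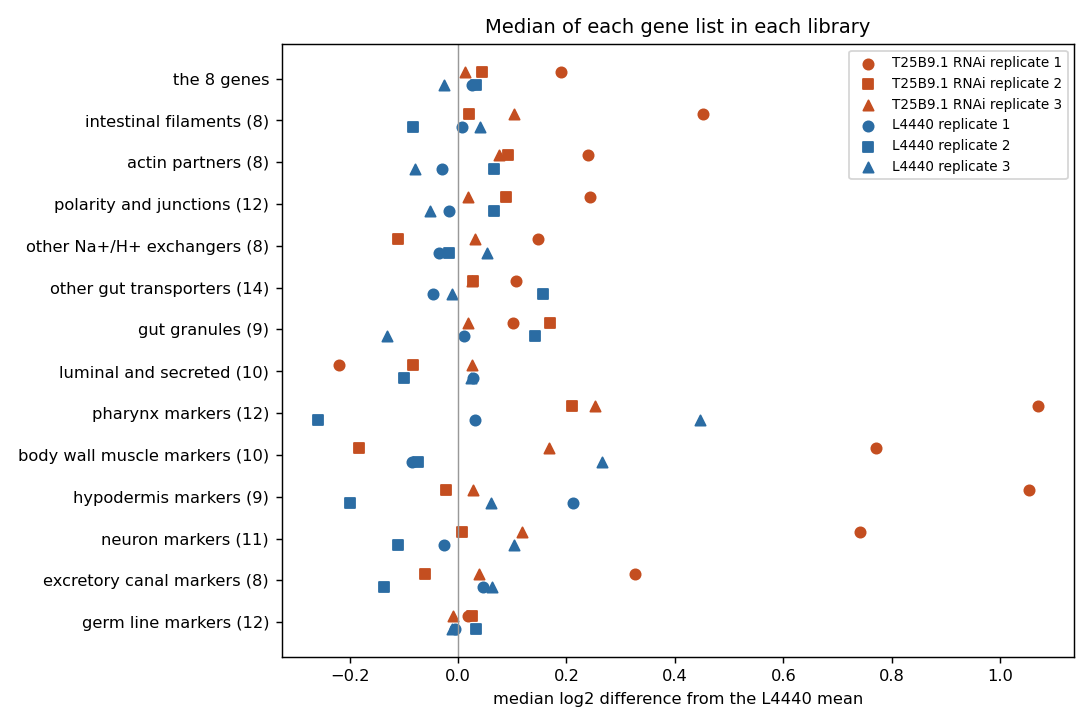
Median log2 difference from the L4440 mean of each gene list in each library, with the number of tested genes in brackets, for T25B9.1 RNAi (orange) and L4440 (blue); circles, squares and triangles are replicates 1, 2 and 3. T25B9.1 RNAi replicate 1 lies at 0.19 for the 8 intestinal genes and at 1.07 for the pharynx markers.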

How the data were processed

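For 6 libraries of whole worms the deposited table holds raw counts of reads per gene. Per the labels' protocols, the TruSeq RNA kit v2 was used, which does not mark strand. The submitters' processing notes name featureCounts 1.4.6-p4, STAR 2.4.1d and bcl2fastq 1.8.4, and the build WBcel235; no source used here gives their options or the annotation release. A second deposited table, named RPKM, was treated as a score and used for no result: over 5928 genes its factor to the counts, relative to L4440 replicate 1, ran from 0.576 to 1.74 within genes and repeated every 36 rows.

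Counts were filtered with filterByExpr, normalised with TMM factors and compared in edgeR 4.0.16 under R 4.3.3 by its 2-sided quasi-likelihood test. P-values of all 13374 genes were adjusted together (Benjamini-Hochberg), with a threshold of 0.05. The SE is the log2 fold change divided by the square root of F. CPM are edgeR's cpm() values, with TMM-scaled library totals. RPKM in the text are TMM-scaled CPM per kilobase of merged exons (Ensembl release 115 annotation of the same build). Per-library differences use edgeR's log2 CPM. Alternatives used DESeq2 1.42.0, limma-voom (limma 3.58.1), RLE, upper-quartile and total-count scaling, no filter and a stricter one, a replicate block, each library left out, and the settings given at the end. In the length correction, a lowess curve of each library's log2 deviations against exonic length enters the fit as an offset. The test was checked on simulated counts. Symbols were matched for 43693 identifiers, but tmd-1, dnase-2, ifa-2 and frm-9 were not matched.

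Members and lists were chosen with earlier results of these data known. Besides the 8 genes and T25B9.1, up to 3 genes per list with the smallest p could be named, together with family members of act-5, ifb-2, nhx-2, pept-1 and elt-2 and the 5 genes most like elt-2. Precision covers counting error and the spread of 3 libraries per group. No sequences were used here.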

Additional observations from a re-analysis of the deposited data

How the results depend on the processing

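None of the 8 genes passed an adjusted p of 0.05 under any of the 16 alternatives; the lowest adjusted p was 0.170, for ifb-2 without a filter on low counts. The sign of elt-2, elt-7, ges-1, ifb-2, pept-1 and nhx-2 was the same in all 16. With 1 library left out, act-5 ran from -0.040 to 0.10 and erm-1 from -0.052 to 0.066 (log2), and erm-1 was at -0.020 with the length correction. The median of the 8 genes ran from 0.038 to 0.082 with 1 library left out. Outside the 8 genes, frm-1 was at -0.15 with the length correction. The number of genes called over the whole table was 0 with edgeR's test, 1 with RLE factors (T25B9.1), 139 with no filter, 14 with DESeq2, 12 with the likelihood ratio test, 1 with the length correction (T25B9.1) and 0 to 1 with 1 library left out; the cause was not tested.

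The labels give the groups no shared replicate numbers. Consecutive library numbers (14 and 13, 18 and 17, 22 and 21) deviated together with correlations of 0.216, 0.418 and 0.285, and each library correlated best with its neighbour in number, a hint from the data and not from the design. With them as a replicate block, genes with an unadjusted p under 0.05 numbered 1457 in place of 826, 0 genes were called, and ifb-2 had a log2 fold change of 0.35 (unadjusted p = 0.00196, adjusted p = 0.334). The block changed no call for any of the 8 genes. At this depth elt-7, with 134 to 190 counts, was the least precisely measured of the 8. The alternatives for gene lists and for genes outside the 8 were chosen after seeing the data.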
